A study of Caenorhabditis elegans with 2 samples.

Results

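The 10 genes described here encode the cyclins, cyclin-dependent kinases (CDKs) and CDK inhibitors that drive and restrain cell division in the nematode Caenorhabditis elegans: cyd-1, cdk-4, cye-1, cdk-2, cya-1, cyb-1, cyb-3, cdk-1, cki-1 and cki-2. They were chosen by name for their role and are 10 of 19973 protein-coding genes in the Ensembl annotation. The measurement was ChIP-seq of LSY-2, a zinc finger transcription factor, in whole L1 larvae, the first larval stage, of mixed sex. There was 1 group with 2 biological replicates and no second condition. Both replicates came from strain OP367, genotype unc-119(tm4063) III with the transgene insertion wgIs367, which carries lsy-2 fused to eGFP. Untagged larvae were not analysed here, and no age beyond the larval stage is stated. The tagged protein comes from a transgene, and the chromatin was from all tissues, so strong binding in few cells and weak binding in many cannot be told apart.

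A CDK is active only when bound to a cyclin, and the cyclin that is present sets the phase of the cell cycle. Cyclin D with CDK-4 carries cells through G1, cyclin E with CDK-2 into S phase, and the A and B cyclins with CDK-1 through mitosis. Inhibitors of the CIP/KIP family, cki-1 and cki-2, bind and silence these kinases. In L1 larvae many blast cells wait in G1 and resume division once the animal feeds, and cki-1 is known to be needed for that arrest.

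LSY-2 peaks past the authors' IDR threshold stood at 4 of the 10 genes: the B cyclin cyb-1, the mitotic kinase cdk-1, the E cyclin cye-1 and the S phase kinase cdk-2. IDR is a filter based on how reproducible peak ranks are between replicates, and 4218 peaks passed it. These were the 4218 strongest of the 30000 pooled peaks, so in this list a single peak passed by its pooled signal. All 4 genes had a promoter peak, meaning a summit no farther than 1000 bp upstream or 200 bp downstream of any start of its transcripts (4 of 10, 40.0%, 95% exact Clopper-Pearson interval 12.2 to 73.8), and the share of all protein-coding genes was 16.9%. That share lies inside the interval, so 10 genes are too few to separate the 2 shares by the interval alone. Counting summits in the gene body as well added a cye-1 peak and no further gene, again 4 of 10, against 18.8% of protein-coding genes. No peak past the threshold was found by this rule at the D cyclin cyd-1, its kinase cdk-4, the A cyclin cya-1, the B cyclin cyb-3 or the inhibitors cki-1 and cki-2. Peak signals are values set by the authors on a scale they do not explain, and read depth is unknown because the lists carry no counts.

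**Figure D1:**
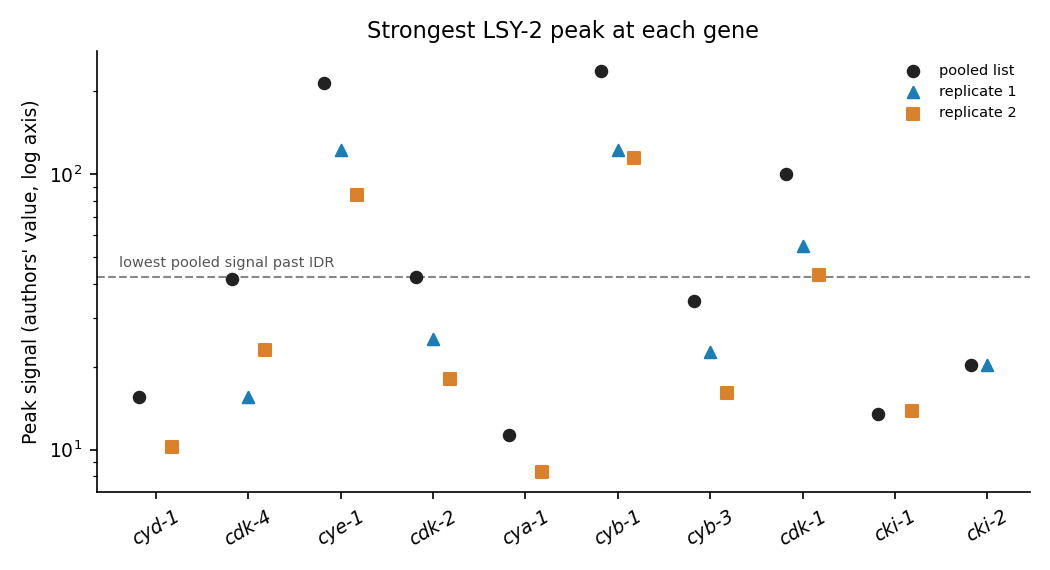
Signal of the strongest peak in the promoter window or gene body of each of the 10 genes (log axis) in the pooled list (black circles), replicate 1 (blue triangles) and replicate 2 (orange squares), with the lowest pooled signal past the IDR threshold, 42.2, as a dashed line. By pooled signal, cyb-1, cye-1 and cdk-1 stand clear above the line, and cdk-2 and cdk-4 sit on either side of it. The line is a pooled value and sets no threshold for the replicate symbols, whose lists are lower in level. A missing symbol means that the replicate had no summit within 200 bp.

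The strongest peak of the group was at cyb-1, which encodes a B-type cyclin of mitosis. Its pooled signal was 237, rank 643 of 30000 pooled peaks, on chromosome IV from 10734622 to 10734824 (ce11). Replicate 1 had a signal of 122 and replicate 2 of 114, a mean of 118 ± 5.64 (SD, n = 2). The replicates were close in level, and their summits were 20 bp apart. Of the 19973 protein-coding genes, 827 (4.14%) had a promoter peak with a higher pooled signal. The summit lay in intergenic sequence 492 bp upstream of the cyb-1 start and 136 bp from the start of orc-5, which encodes an origin recognition complex subunit and is transcribed away from cyb-1. The starts of these neighbours are 628 bp apart, and the peak stands in the promoter windows of both.

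The kinase gene cdk-1, whose product drives mitosis with the B cyclins, had a peak on chromosome III from 9747302 to 9747409 with a pooled signal of 100.1 (rank 1831). Replicate 1 gave a signal of 54.9 and replicate 2 of 43.2 (mean 49.0 ± 8.28, SD, n = 2), and they held rank 1920 and rank 1918 in their own lists of 30000 peaks. Rank was thus nearly the same in both although replicate 1 was higher in signal. The summit was intergenic, 113 bp upstream of the cdk-1 start, closer to its own start than any other promoter summit past the threshold in the group. The window also belongs to iff-1, an eIF5A translation factor gene on the opposite strand, whose start was 166 bp from the summit. The peak was 108 bp wide. The most frequent width in the pooled list was 340 bp, shared by 93.6% of its peaks, and 39.3% of peaks past the threshold were narrower than that (73.3% in the stronger 2109 and 5.36% in the rest).

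The second B cyclin measured, cyb-3, had its peak below the threshold. On chromosome V from 15394915 to 15395254 its pooled signal was 34.5 (rank 5177), with 22.5 in replicate 1 and 16.1 in replicate 2, a mean of 19.3 ± 4.52 (SD, n = 2). Both replicates held the peak, with summits 18 bp apart, so it was repeatable in position but lower in signal than that at cyb-1 in each replicate. The summit lay 611 bp upstream of cyb-3 and 124 bp from the start of T06E6.1, a gene annotated in RefSeq as WD repeat-containing protein 74 and read in the opposite direction.

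The DNA under these summits is shown for the mitotic genes cyb-1, cdk-1 and cyb-3 and for cdk-4, the gene nearest below the threshold, so that strong and weak sites can be read side by side. Each is 200 bases of ce11 from RefSeq, 100 bases before the summit and the rest from the summit on, plus strand, 5′ to 3′, at chrIV:10734624-10734823 for cyb-1, chrIII:9747259-9747458 for cdk-1, chrX:13519269-13519468 for cdk-4 and chrV:15394985-15395184 for cyb-3. None overlaps an annotated exon. Capitals mark any of 9 short motifs on either strand, described next.
cyb-1: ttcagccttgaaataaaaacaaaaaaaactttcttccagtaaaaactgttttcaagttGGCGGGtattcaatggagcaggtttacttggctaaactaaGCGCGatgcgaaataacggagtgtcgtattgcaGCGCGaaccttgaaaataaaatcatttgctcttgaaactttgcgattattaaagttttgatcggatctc
cdk-1: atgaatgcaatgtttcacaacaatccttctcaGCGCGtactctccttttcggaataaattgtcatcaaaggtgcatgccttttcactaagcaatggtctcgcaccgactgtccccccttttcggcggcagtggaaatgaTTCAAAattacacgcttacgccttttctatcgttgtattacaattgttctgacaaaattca
cdk-4: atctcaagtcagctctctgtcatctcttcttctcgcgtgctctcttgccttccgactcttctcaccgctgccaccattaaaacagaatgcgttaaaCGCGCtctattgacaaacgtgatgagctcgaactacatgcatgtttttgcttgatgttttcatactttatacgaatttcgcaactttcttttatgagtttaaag
cyb-3: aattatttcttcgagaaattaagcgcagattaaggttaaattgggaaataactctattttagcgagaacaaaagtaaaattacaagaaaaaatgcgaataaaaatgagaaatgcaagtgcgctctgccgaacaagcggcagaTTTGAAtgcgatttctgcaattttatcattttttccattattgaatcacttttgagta

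The motifs were searched on both strands. GAGAGA was included with GACGCA and with ACCGTA because all were frequent near LSY-2 summits in earlier work on these data. E2F-type sites were searched as TTTCCCGC and, separately, TTTGGCGC, and the cell cycle element CHR as TTTGAA or as the palindrome TTCGAA. The short runs GGCGGG and also GCGCG were added after the sequences had been read, and GCGCG can overlap itself. That choice can raise the counts of both runs in the windows of these genes, so they are described only. The letters GCGCG stood in 4 of the 5 windows of 200 bp at peaks of these genes past the threshold, in 32.1% of the windows of all 4218 peaks, in 8.36% of windows at pooled peaks below the threshold and in 10.3% of the 200 bp upstream of protein-coding genes. In the window of cyb-1 they began 2 bp before the summit and again 31 bp after it, and in that of cdk-4 they began 4 bp before it. Elsewhere they lay farther off: 68 bp before the summit at cdk-1, 68 bp after it at cdk-2, 38 to 52 bp after it at the cye-1 promoter and 21 to 23 bp before it at cki-2. The windows of the cye-1 intron, cyb-3, cya-1, cyd-1 and cki-1 had none. GACGCA was in 3 of the 5 windows, those of cdk-2 and of both cye-1 peaks, and in 22.9% of all windows past the threshold. TTTGAA was also in 3 of the 5, against 35.2% of all windows past the threshold and 51.2% of those below. GAGAGA stood at the cye-1 promoter alone among the 5, against 42.5% of all. Of the remaining letters, TTTCCCGC was at cdk-2 (2.13% of all), GGCGGG at cyb-1 (9.10% of all), and ACCGTA (9.48%), TTTGGCGC (1.42%) and TTCGAA (13.3%) were in none of the 5. The base composition of the 5 windows ran from 37.0% to 53.5% G and C, and the median over all windows past the threshold was 41.5%. These are matches of letters, and whether LSY-2 touches any of them was not tested.

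The E cyclin gene cye-1 was the one gene of the group with more than 1 peak past the threshold. Its promoter peak, on chromosome I from 6780145 to 6780365, had a pooled signal of 214 (rank 736). The replicates gave 123 and 84.2, a mean of 103 ± 27.2 (SD, n = 2), with summits 2 bp apart. The position was therefore nearly identical while replicate 1 was the higher in signal. The summit lay 549 bp upstream of cye-1 and 99 bp from the start of pqn-21, a gene named for a Q/N-rich prion-like domain, which runs away from cye-1 from a start 648 bp distant.

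The other cye-1 peak, from 6781620 to 6781866, had a pooled signal of 165 (rank 1033) and reached 101 in replicate 1 and 65.9 in replicate 2 (mean 83.3 ± 24.6, SD, n = 2). Its summit was inside an intron of cye-1, 946 bp downstream of the nearest cye-1 start. The same intron holds a cysteine tRNA gene (WBGene00022955, from 6781803 to 6781874, on the cye-1 strand, named from RefSeq), and the summit was 51 bp upstream of the start of that tRNA gene. The cye-1 body peak thus stands in the window of a gene read by another polymerase, and its signal cannot be assigned to either gene from a peak list. At the other 3 bound genes the nearest tRNA start was at least 114329 bp from the summit.

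At cdk-2, the kinase partner of cyclin E, the promoter peak only just passed. It lay on chromosome I from 3409687 to 3410026, with a pooled signal of 42.5 (rank 4192), where the lowest signal past the threshold was 42.2. In replicate 1 it was 25.21 and in replicate 2 17.97 (mean 21.6 ± 5.12, SD, n = 2), with summits 77 bp apart, against a median of 19 bp and a 90th percentile of 72 bp over all peaks past the threshold with a summit in both. The summit was 156 bp upstream of the cdk-2 start, in no other protein-coding promoter window. At cdk-2 5 further pooled peaks, all inside the gene, had signals from 7.59 to 13.1. The A cyclin gene cya-1, whose product acts in S phase and mitosis, had 2 weak pooled peaks, of 11.3 in an intron and 10.6 in the 5′ UTR. Each had a summit within 200 bp in a single replicate, at 8.28 in replicate 2 and 8.31 in replicate 1, respectively.

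**Figure D2:**
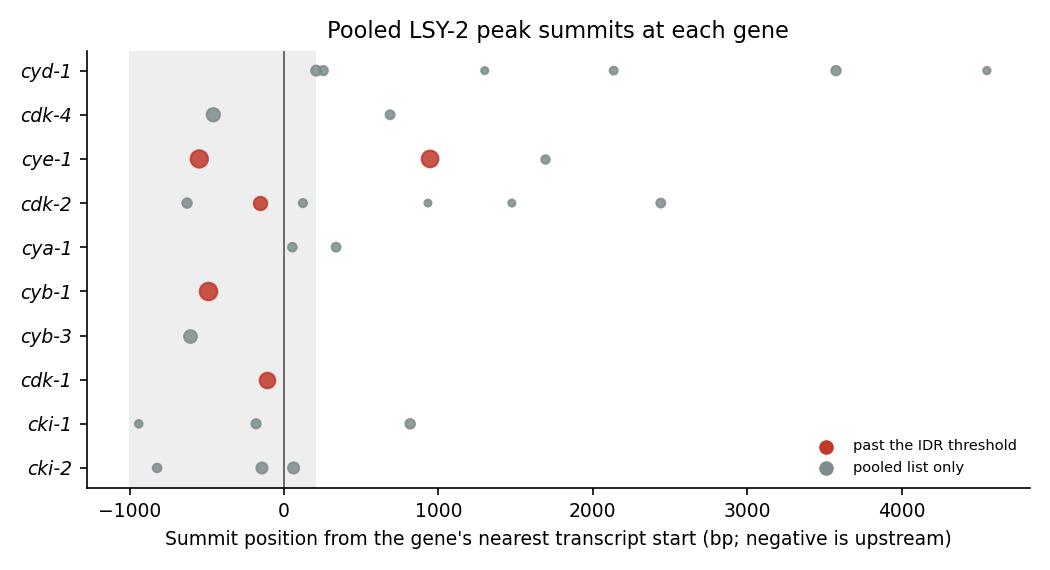
Summits of the 28 pooled peaks at the 10 genes by distance from the gene's nearest transcript start in bp, with negative values upstream and the promoter window shaded. Red points, the 5 peaks past the IDR threshold, lie upstream of the start except the cye-1 intron peak at 946 bp. Grey points are below the threshold, and point area grows with the log of the pooled signal.

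In the G1 pair, cdk-4 fell just short of the threshold and cyd-1 had weak peaks in its body. The cdk-4 peak, on chromosome X from 13519199 to 13519538, had a pooled signal of 41.6 (rank 4267). It was 15.5 in replicate 1 (rank 7351) and 23.1 in replicate 2 (rank 3669), a mean of 19.3 ± 5.35 (SD, n = 2), with summits 8 bp apart. Here replicate 2 was the higher, with a log2 ratio of replicate 1 to replicate 2 of -0.57, where the median over 4179 peaks past the threshold was 0.34 and the 5th percentile -0.54. The summit lay 458 bp upstream of cdk-4 and 294 bp from the start of the oppositely read F18H3.1, annotated in RefSeq as SPRY domain-containing protein 7. The replicates did not order cdk-2 and cdk-4 alike: the signal was higher at cdk-2 in replicate 1 and higher at cdk-4 in replicate 2. The pooled signals that the threshold parts carry no error of their own. With the 4218 strongest peaks of replicate 1 alone neither gene had a promoter peak, and with those of replicate 2 alone cdk-4 had one and cdk-2 did not.

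The D cyclin gene cyd-1, whose kinase partner is CDK-4, was the longest of the 10 at 12527 bp. It had 6 pooled peaks in its body, with signals from 7.81 to 15.5, and none in a promoter window. The strongest lay in an intron 208 bp downstream of the first start, just outside the window. It had a summit in replicate 2 (10.3) and none within 200 bp in replicate 1. Among peaks past the threshold, the closest summit to a cyd-1 start was 8174 bp off, within an intron of hphd-1.

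The inhibitor genes cki-1 and cki-2, neighbours on chromosome II, had weak peaks alone in their windows and bodies. A peak past the threshold, with a pooled signal of 51.7, lay farther out, 1966 bp upstream of the cki-1 start, and was looked up after the values had been seen. At cki-1 the pooled peaks had signals of 8.57 and 12.3 in the promoter window and 13.5 in the 3′ UTR. Each of these 3 had a summit within 200 bp in a single replicate. At cki-2 the promoter signals were 10.6, 20.2 and 20.2. The last pair had summits at 7816356 and 7816562 and shared a single replicate 1 summit with a signal of 20.3. In replicate 2 the signal near the latter was 5.16, and no summit lay within 200 bp of the former. The cki-2 promoter signal therefore rested mainly on replicate 1. The median pooled signal of all 30000 peaks was 13.9, and the strongest peaks of cki-1 (13.5) and cya-1 (11.3) were below it.

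The 2 strongest promoter peaks of the group below the threshold, at cdk-4 and cyb-3, were found in both replicates. So were the 4 promoter peaks past it, as were nearly all peaks past the threshold (99.1%). Of the 28 pooled peaks in the promoter windows or bodies of the 10 genes, 19 had a signal under 20, a share close to that of the whole pooled list (20463 of 30000). Summits of both replicates lay within 200 bp of 12 of the 28, of a single replicate at 16. Both replicates had such a summit at 47.7% of all pooled peaks. Over the whole pooled list both replicates had such a summit at 27.1% of peaks with a signal under 20, at 86.3% of those from 20 to the threshold and at 99.1% of those past it. A promoter summit in each of the 3 lists before IDR, at any place in the window, was present for 9 of the 10 genes, all but cyd-1, and for 31.5% of protein-coding genes. With a window of 500 bp upstream to 100 bp downstream the count fell to 5 of the 10, against 23.5% of protein-coding genes. These lists hold 30000 peaks each, many of them weak, and the pooled one is labelled as peaks and background for input to IDR. Presence in them is therefore not a call of binding. The strongest pooled promoter peaks of cya-1 and cki-1 had signals of 10.6 and 12.3, below the pooled median of 13.9.

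**Figure D3:**
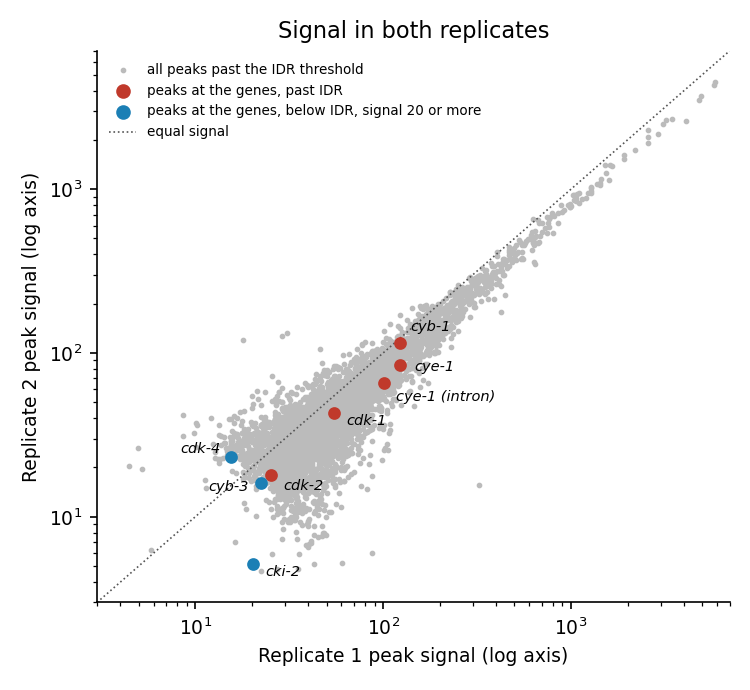
Signal in replicate 1 (horizontal axis) and replicate 2 (vertical axis), both log axes, for 4179 peaks past the IDR threshold (grey), for the 5 such peaks at the cell cycle genes (red) and for their peaks below it with a pooled signal of 20 or more and a summit in both replicates (blue). The red points follow the grey cloud, with replicate 1 the higher at all 5, cdk-4 lies above the dotted line of equal signal, and cki-2 lies far below it.

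Replicate 1 had the higher signal at all 5 peaks past the threshold, with log2 ratios from 0.10 at cyb-1 to 0.61 at the cye-1 intron. It was also the higher at 3248 of the 4179 peaks past the threshold with a summit in both, so the offset was not particular to these genes. Signals were not scaled between lists, and the SDs above include it.

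Most of the stronger promoter peaks lay between genes that start on opposite strands. At cyb-1, cye-1, cdk-1, cdk-4 and cyb-3 the window holding the strongest promoter peak also belonged to a gene that starts on the other strand, with 279 to 752 bp between the starts. The neighbour's start was the nearer at cyb-1 and cye-1, which makes 2 of the 4 genes with a promoter peak past the threshold, and also at cdk-4 and cyb-3, whose peaks were below it. Among all peaks past the threshold, 33.4% of the 2658 summits in a protein-coding promoter window lay in more than 1 such window. That is a share of summits, each of which can belong to more than 1 gene, so the counts of genes above cannot be set against it. Of the protein-coding genes with such a peak, 27.3% had their strongest summit nearer to another protein-coding start. With a summit counted only for the protein-coding start closest to it, cdk-1 and cdk-2 kept a promoter peak, and cyb-1 and cye-1 lost theirs to orc-5 and pqn-21. That left 2 of the 10 genes, against 12.5% of protein-coding genes. Which of the paired genes a peak acts on, if any, was not measured.

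Further members of the cyclin and CDK families, most of which act in transcription or in neurons, had promoter peaks past the threshold at 13 of 19 genes (68.4%, 95% exact interval 43.4 to 87.4), against the 16.9% of all protein-coding genes given above. The strongest were at cdk-5, a kinase of postmitotic neurons (pooled signal 881, replicates 511 and 369), in an intron of the overlapping gene kel-3, and at ccnk-1, cyclin K of transcription elongation (804, replicates 465 and 338), which shares its window with R11H6.5. Next came cdk-7, the CDK-activating kinase of TFIIH (296), cdk-11.1 (273), and cdk-8 (231) and cic-1 (222), the kinase and cyclin C of the Mediator complex. Of the 13 genes, 7 exceeded 120.5, the median for the strongest promoter peak of protein-coding genes past the threshold, and so did cyb-1 and cye-1 but not cdk-1 and cdk-2. The 13 genes had 12 peaks, because cit-1.1 and cit-1.2 share 1. The 6 genes without a promoter peak past the threshold were the B-type cyclins cyb-2.1 and cyb-2.2, cyh-1, cdka-1, cyy-1 and pct-1. The first 3 of these had none in the pooled list either. How reads that fit closely related copies such as cyb-2.1 and cyb-2.2 were treated is not stated in the labels or listings.

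Genes that control the activity or destruction of cyclins and CDKs had promoter peaks past the threshold at 11 of 27 (40.7%, interval 22.4 to 61.2), again against 16.9% of all protein-coding genes. With the 2109 strongest peaks alone it was 7 of 27, against 2200 of the 19973 protein-coding genes. The strongest were at efl-1, an E2F factor (pooled signal 485, replicates 263 and 226), mat-1, an anaphase-promoting complex subunit (389, nearer to prp-31), and wee-1.3, an inhibitory kinase of CDK-1 (359). They were followed by the cullin gene cul-4 (270), the F-box gene lin-23 (251) and lin-35, the retinoblastoma homologue (245). Of the 16 others, 8 had a pooled promoter peak, up to 40.1 at dpl-1, the E2F partner. The 4 CDC25 phosphatase genes, which activate CDKs, had none past the threshold, and cdc-25.2 alone had a pooled promoter peak (7.54). These lists were compiled with earlier results of these data known, and their shares carry no test. The intervals of the 3 lists overlap.

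**Figure D4:**
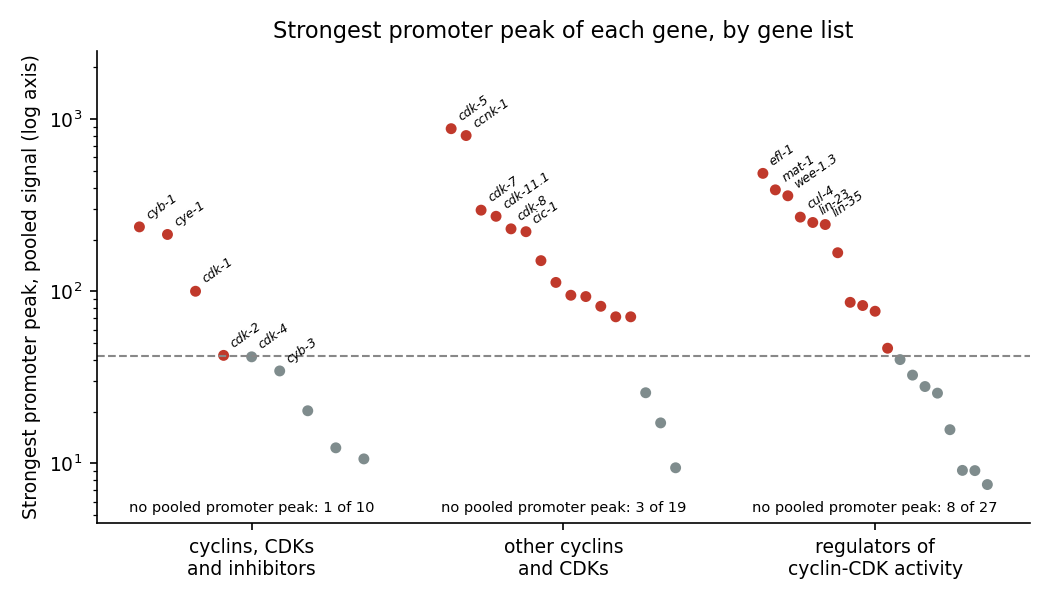
Pooled signal (log axis) of the strongest promoter peak of each gene, ordered within the 10 cyclins, CDKs and inhibitors, 19 other cyclins and CDKs and 27 regulators, with the lowest signal past the IDR threshold, 42.2, as a dashed line. Points are red past the threshold and grey below it, genes without a pooled promoter peak are counted at the foot of each column, and the names of the 6 strongest are given. The strongest of the 10, cyb-1 at 237, lies below the 4 strongest of the other cyclins and CDKs and below the 6 strongest regulators.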

How the data were processed

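LSY-2 ChIP-seq of 2 biological replicates of 1 group was analysed from the ce11 peak lists: 1 list for each replicate, 1 for the pool and 1 thresholded by IDR. Per the text listings the authors deposited, a control alignment entered each list before IDR, and the IDR list was derived from those lists. No label or listing used here names the aligner, the caller or the IDR cut-off. Each peak's signal and −log10 q value are the authors' deposited values, the latter by its place in the narrowPeak layout. The −log10 q value was 4.16 for every peak past the threshold, so it ranked none of those. Below the threshold, the promoter peaks of cdk-4 and cyb-3 had the same 4.16 in the pooled list. The other pooled peaks of the 10 genes below the threshold had values from 0.30 (cdk-2 body) to 2.37 (cki-2). The cya-1 peaks had 0.65 and 0.58, and the cki-1 promoter peaks 0.38 and 0.79. The IDR list equals the 4218 strongest of 30000 pooled peaks. Signal medians were 8.52 (replicate 1), 7.84 (replicate 2) and 13.9 (pooled list). The ce10 lists were not used here.

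Summits were matched to Ensembl release 115 (WBcel235, the same assembly as ce11), positions counted from 1. A replicate's value is that of its nearest summit within 200 bp. No test was made, since there is 1 group. Shares have 95% exact intervals, which cover the counting of genes only. Named were all 10 genes, the 6 with the strongest promoter peak past the threshold in each of the 2 other lists, and genes sharing a peak. Others (cit-1.1, cit-1.2, dpl-1, the CDC25 genes, those without a peak and the owners of the nearest peaks) were named after their values were seen. Genes, lists and motifs were chosen with earlier results of these data known. The assignment of summits was tested on simulated data. Python 3.11.15 was used with pandas 2.3.3, numpy 2.4.6 and scipy 1.17.1, and figures with matplotlib 3.10.9.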

Additional observations from a re-analysis of the deposited data

How the results depend on the processing

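The count of cell cycle genes with a promoter peak was 4 of 10 and ranged from 3 to 4 when each replicate was left out (cdk-2 was lost both times, and cdk-4 was gained with replicate 2 alone). It was 3 with the 2109 strongest peaks (2200 of 19973 protein-coding genes), 3 with a window of 500 bp upstream to 100 bp downstream (cye-1 was lost, 13.8% of protein-coding genes), 4 with any overlap of the peak interval (17.8%), 5 with 2000 bp upstream (21.4%, cki-1 was gained) and 2 with the nearest start alone (12.5%). With the gene body it ranged from 3 to 5 (11.9% to 22.7% of protein-coding genes), and from 3 to 4 with each replicate left out. With the same settings and shares of all genes, the other cyclins and CDKs had 13 of 19 in the main setting, 10 with the 2109 strongest peaks, 11 with the narrower window, 14 with any overlap, 14 with 2000 bp upstream, 10 with the nearest start and 13 whichever replicate was left out (16.8% and 17.0% of all genes). The regulators had 11 of 27 in the main setting, 7, 10, 11, 12 and 9 in that order, and 11 to 12 with each replicate left out. A promoter summit in all 3 lists was present for 9 of 10, for 5 (23.5% of protein-coding genes) with the narrower window, for 6 (24.2%) with the stronger part of each list by signal, and for 7 (28.9%) when both replicate summits had to lie within 200 bp of the pooled one, an alternative chosen after seeing the data. Of 36 signals of single genes taken from replicates, alone or averaged, 34 were below the pooled one. Replicate lists were lower in level (medians 8.52 and 7.84, against 13.9 in the pooled list), so this count does not measure how stable the signals are. The 36 are not all distinct. At cdk-4, cye-1, cdk-2, cyb-1, cyb-3 and cdk-1 the average was counted once for each way of matching replicate peaks, with the same value each time. Depth is unknown, so weak peaks cannot be set against a detection limit. No paired analysis was possible because there is 1 group.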

Other observations

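The 5' flank of cki-1, the CIP/KIP inhibitor, held a peak past the IDR threshold outside the promoter window used here. Its summit at position 7809274 on chromosome II (ce11) was 1966 bp upstream of the cki-1 start, in an exon of the non-coding gene T05A6.15, and cki-1 had the nearest protein-coding start. The pooled signal was 51.7 (rank 3515), with 27.6 in replicate 1 and 22.9 in replicate 2, a mean of 25.24 ± 3.37 (SD, n = 2). It was higher in both replicates and in the pool than any peak inside the window or the body of cki-1. For cdk-4 and cya-1 the nearest summits past the threshold outside their own regions were 4328 bp and 16808 bp from the start, at col-185 and in an intron of sec-16A.1. For cyb-3 the nearest was 116099 bp away, beside the ribosomal protein gene rpl-38, with a pooled signal of 1399. These peaks were looked up after the values had been seen.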
